A study of Mus musculus with 20 samples.

Results

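This account describes 45 genes of autophagy and mitophagy in the mouse, measured in BAT (brown adipose tissue), which turns stored fuel into heat. They were taken from the pathway as it is known, by gene symbol, from 55471 gene IDs in the count tables, and each symbol matched 1 ID. Stranded mRNA sequencing gave 20 libraries in 4 groups of 5. KO_cold and KO_RT came from mice with an adipose-specific knockout of CEBPB (the gene Cebpb, which codes for the transcription factor C/EBP beta), after 4 h of cold stress and at room temperature (RT). WT_cold and WT_RT came from wild-type mice under the same 2 conditions. The driver of the knockout, the strain, the age of the mice and the temperature of the cold are not given in the sources used here. No label ties the libraries to separate animals, so a p-value measures the spread between libraries, which may be technical. All 45 genes passed the filter on low counts, within a total of 15233 genes tested.

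In autophagy a double membrane, the phagophore, grows around a piece of cytoplasm, closes to an autophagosome and fuses with a lysosome, where the contents are broken down. A kinase complex starts the process, a lipid kinase complex marks the membrane, lipid carriers feed it, and a pair of ubiquitin-like conjugation systems attach ATG8 proteins to it, which cargo receptors then bind. Mitophagy is the same route with a mitochondrion as cargo, picked out by receptors in its outer membrane or by the kinase PINK1. In brown fat the route is known for removing mitochondria when thermogenic stimulation is withdrawn, and for contributing to lipid use in the cold. Transcript levels do not measure its flux.

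Values are CPM, the counts of a gene per 1 M counts of its library, after TMM scaling. Library totals ran from 27.07 to 55.18 M counts. Cebpb stood at 1.61 to 2.27 CPM in KO_cold and 0.208 to 0.856 in KO_RT, against 108 to 167 in WT_cold and 75.5 to 130.4 in WT_RT, matching the genotype labels. The 9 brown adipocyte markers summed to 15260 CPM or more in every library, with 2 called higher and 5 lower in the cold in KO and 2 higher and 4 lower in WT. Skeletal muscle markers moved with temperature. Their 18 genes summed to 51.4 to 61.7 CPM in KO_cold against 84.1 to 722 in KO_RT, and to 51.8 to 92.0 in WT_cold against 58.1 to 1612 in WT_RT. Ckm and Myh4 were at 0 in every KO_cold library and none of the 18 in every WT_cold library. Of the 18, 16 were called lower in the cold in KO and 17 in WT. The low end of the WT_RT range was replicate 4. That library and WT_cold replicate 5 lay nearest the middle of the first principal component, so results of the wild type are also given without the pair. The 10 endothelial markers, 5 called higher and 4 lower in the cold in KO and 4 of each in WT, summed to 1046 to 1215 CPM in KO_cold against 692 to 912 in KO_RT, and to 952 to 1140.0 in WT_cold against 834 to 1045 in WT_RT. The 11 lymphocyte markers, 4 called lower in KO and 5 in WT, summed to 4.39 to 5.96 CPM in KO_cold against 7.62 to 19.7 in KO_RT, and to 3.24 to 8.97 in WT_cold against 8.10 to 10.3 in WT_RT. The part of these 2 lists in the changes in the cold was not tested. In bulk tissue fewer cells of a type and less RNA per cell cannot be told apart.

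Levels of the 45 genes were compared per kilobase of exon, as CPM per kb averaged over the 20 libraries. Gabarap (116 CPM per kb) and Gabarapl1 (105), which code for ATG8 proteins, stood highest. Bnip3 (96.2), a mitophagy receptor, and Trp53inp2 (94.1), a nuclear cofactor that moves to autophagosomes, came next, before Map1lc3a (78.5). The order differed between groups: in WT_RT alone Bnip3 stood above Gabarap, at 129 against 104 CPM per kb. Pink1 and Sqstm1 followed with 56.1 and 55.8 CPM per kb, and the next gene, Optn, stood at 21.5. The conjugation enzymes were lower, with Atg3 at 20.7 and Atg7 at 2.07 CPM per kb. Some related genes stood far apart and others close: Ulk2 stood at 9.21 and Ulk1 at 7.54 CPM per kb, and Atg2b at 3.75 and Atg2a at 3.56. Atg9a stood at 2.92 against 0.413 CPM per kb for Atg9b, and Atg16l1 at 3.36 against 0.314 for Atg16l2, the lowest of all 45. Summed over the 45 genes, CPM ran from 3455 to 3722 in KO_cold against 2998 to 3265 in KO_RT, and from 3436 to 3704 in WT_cold against 2919 to 3532 in WT_RT. The sums did not overlap between temperatures in KO and overlapped in WT.

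**Figure D1:**
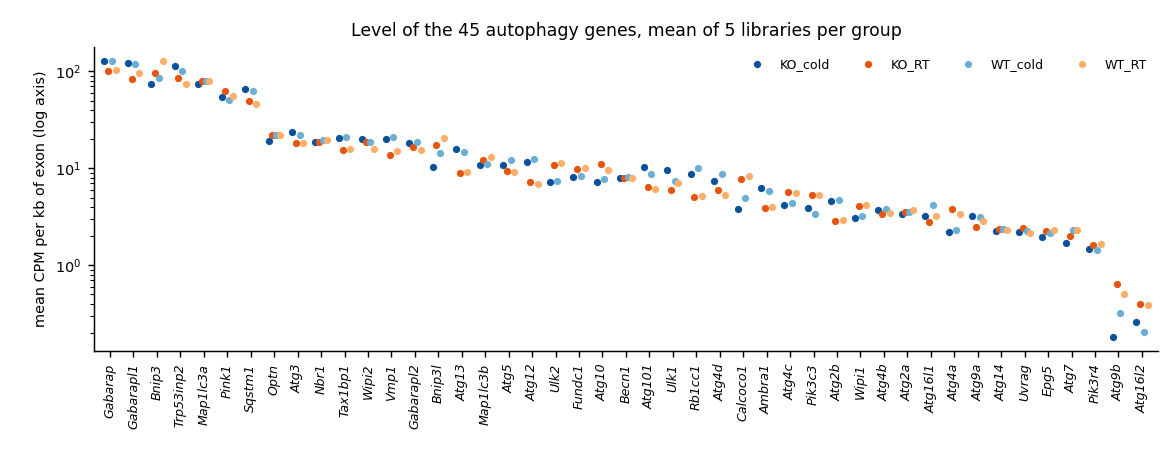
Mean level of each of the 45 genes in the 4 groups, as CPM per kb of exon on a log axis, in order of level. The ATG8 genes Gabarap and Gabarapl1 lie at the high end and Atg9b and Atg16l2 at the low end in every group.

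Cold moved most of the 45 genes, in both directions and by less than 2-fold in nearly all. In KO, 20 rose, 16 fell and 9 were not called, by edgeR's quasi-likelihood test with Benjamini-Hochberg adjustment over all genes tested and a threshold of 0.05. The called share was 80.0%, where 59.2% of all genes tested were called. In WT, 19 rose, 14 fell and 12 were not called, a share of 73.3% where 56.4% of all genes were called. By direction, 44.4% of the genes rose in KO where 27.5% of all genes did, and 42.2% rose in WT where 26.2% did, while 35.6% fell in KO (31.7% of all genes) and 31.1% fell in WT (30.2%). The median log2 change was 0.02 in KO and 0.03 in WT, against -0.05 over all genes in each. Only Atg9b and Calcoco1, in KO, moved at least 2-fold, where 15% of all genes did in KO and 13% in WT. Called changes of at least 0.75 log2 were Rb1cc1 and Atg13 higher (8.27% of all genes) and Atg9b, Calcoco1 and Atg4a lower (14.9%) in KO, and Rb1cc1 and Atg12 higher (7.02%) and Atg16l2 and Calcoco1 lower (13.6%) in WT. The 5 and 5 libraries did not overlap in KO for 16 higher (21.6% of all genes) and 12 lower (23.2%), where 44.9% of all genes did not overlap. In WT they did not overlap for 15 higher (18.9%) and 8 lower genes (19.3%), where 38.2% of all genes did not.

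The 2 genotypes gave largely the same calls. Of the 45, 18 (40%) rose in both, where 22.9% of all genes did. These are 90% of the genes that rose in KO and 94.7% of those that rose in WT. Over all genes, 3482 rose in both, out of 4195 that rose in KO and 3997 in WT. Another 13 (28.9%) fell in both, where 25.1% of all genes did. These 13 are 81.2% of those that fell in KO and 92.9% of those that fell in WT. Over all genes, 3820 fell in both, out of 4824 that fell in KO and 4597 in WT. None of the 45 was called in opposite directions. By edgeR on all 20 libraries, Ulk1 and Atg9a rose and Atg7, Atg9b and Optn fell in KO without a call in WT, and Wipi2 rose and Pik3r4 fell in WT without a call in KO. Becn1, Atg14, Uvrag, Atg2a, Map1lc3a, Nbr1 and Epg5 were called in neither.

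**Figure D2:**
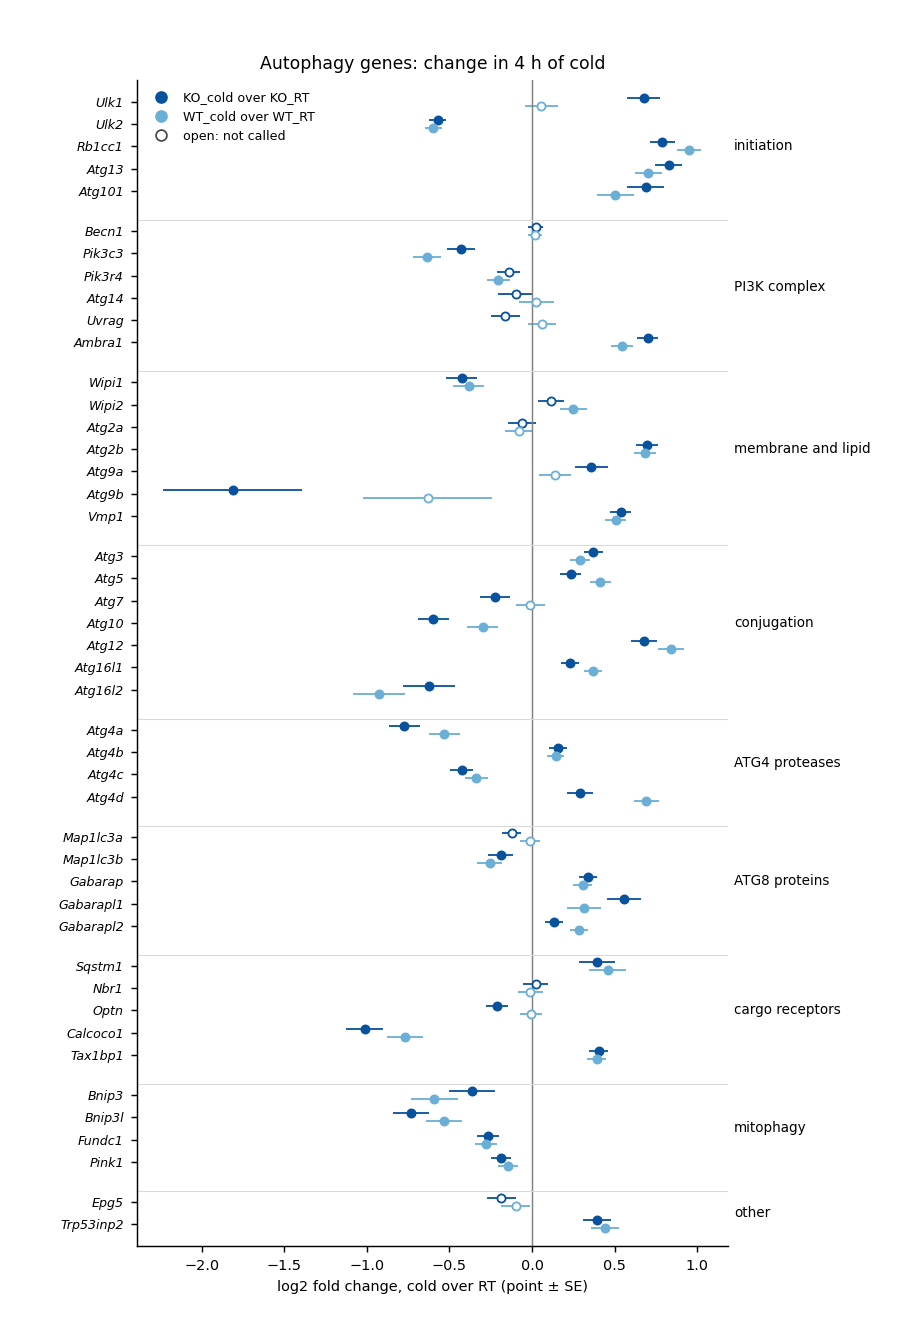
Log2 change in the cold of the 45 genes by role, for KO_cold over KO_RT and WT_cold over WT_RT. Points are shown ± SE from the single fit of all 20 libraries, 5 per group, with filled points for called changes. Most initiation, conjugation and ATG8 genes lie right of 0, and the 4 mitophagy genes lie left of it.

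The muscle markers fell in the same comparison as the 16 and 14 lower genes. With the mean of these markers as a term in the fit, 19 genes were called higher in KO and 19 in WT, and 10 were called lower in each genotype. In KO this mean ran from -2.1 to -1.846 log2 CPM in KO_cold against 0.6715 to 4.729 in KO_RT, without overlap. Muscle and temperature therefore cannot be fully told apart in KO, and a call lost with the term does not show a part of muscle. Over all genes the term left 3218 higher calls in KO (4195 without it) and 3514 in WT (3997), and 3445 lower calls in KO (4824) and 3771 in WT (4597). The lower calls lost in KO were Wipi1 (-0.25 with the term), Atg7 (-0.16), Atg16l2 (-0.35), Map1lc3b (-0.05), Bnip3 (-0.37) and Pink1 (-0.09), of which Bnip3 kept its log2 change. In WT they were Pik3r4 (-0.22), Atg10 (-0.24), Map1lc3b (-0.16) and Pink1 (-0.08), of which Pik3r4 did not shrink. WT_RT replicate 4 had its muscle sum inside the WT_cold range. It lay below every WT_cold library in 19 of the 19 genes that rose in WT. In 9 of the 14 that fell it lay above every WT_cold library. It was among the libraries that gave these calls, so its place is in part built into the choice of genes. The share over all genes called in WT was not counted. Without WT_RT replicate 4 and WT_cold replicate 5, 18 genes rose and 14 fell in WT.

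In the initiation complex, the kinase assembly that starts autophagy, 4 of 5 genes rose and 1 fell in KO, and 3 rose and 1 fell in WT. Rb1cc1 (ENSMUSG00000025907.14, chromosome 1, 6206197 to 6276648, plus strand) codes for FIP200, the scaffold of the complex. Rb1cc1 stood at 124, 126, 122, 149 and 128 CPM in the KO_cold libraries, against 85.4, 70.97, 76.9, 73.6 and 68.9 CPM in KO_RT. Rb1cc1 in the wild type stood at 131, 157, 149.6, 163 and 139 CPM in WT_cold, against 77.8, 75.4, 71.96, 72.3 and 85.7 CPM in WT_RT. In both genotypes every cold library lay above every RT library. The log2 change was 0.79 ± 0.0736 in KO (adjusted p = 1.06e-08) and 0.95 ± 0.0736 in WT (adjusted p = 1.07e-09). Atg13 (ENSMUSG00000027244.14, chromosome 2, 91674618 to 91710576, minus strand) codes for the adaptor that binds the kinases to FIP200. Atg13 stood at 62.7, 64.5, 69.7, 75.5 and 72.3 CPM in the KO_cold libraries, against 41.5, 39.7, 39.5, 35.9 and 37.7 CPM in KO_RT. Atg13 in the wild type stood at 65.1, 73.98, 57.7, 70.9 and 57.8 CPM in WT_cold, against 38.4, 40.6, 38.8, 34.3 and 47.7 CPM in WT_RT. The cold libraries again lay above all RT libraries in both genotypes, with log2 changes of 0.83 ± 0.0837 in KO and 0.70 ± 0.0832 in WT (adjusted p = 3.17e-08 and 3.13e-07). Atg101, which stabilises ATG13, rose by 0.69 ± 0.112 in KO and 0.50 ± 0.112 in WT. The 2 kinases went apart: Ulk2 fell by 0.57 in KO and 0.60 in WT on the log2 scale, while Ulk1 rose in KO and changed by 0.06 ± 0.0981 without a call in WT.

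The phosphatidylinositol 3-kinase complex, which marks the membrane with its lipid product, held 1 higher and 1 lower gene of 6 in KO, and 1 higher and 2 lower in WT. Its catalytic subunit Pik3c3 (VPS34) fell, with log2 changes of -0.43 ± 0.0871 in KO and -0.63 ± 0.0867 in WT, and ran from 12.9 to 27.5 CPM over the 20 libraries. Its protein kinase-like subunit Pik3r4 (VPS15) fell in WT (-0.20 ± 0.0705) and was at -0.14 ± 0.0712 without a call in KO (adjusted p = 0.0911). The Pik3r4 libraries overlapped between temperatures in WT and not in KO, and the interaction was not called (adjusted p = 0.958). The call in WT was lost without the filter (adjusted p = 0.0953) and with only the groups compared in the fit (adjusted p = 0.0625). It was also lost without WT_cold replicate 3, WT_RT replicate 2 or WT_RT replicate 3 (adjusted p of 0.0517 to 0.102). Becn1, the regulatory subunit Beclin 1, changed by 0.02 ± 0.0449 in KO and 0.02 ± 0.0447 in WT, with a 95% interval of -0.07 to 0.12 in KO and -0.08 to 0.11 in WT. Atg14, which directs the complex to autophagy, and Uvrag, its counterpart in an endosomal form of the complex, were not called in either genotype. Ambra1, which links Beclin 1 to ULK1, was the gene of this group that rose, by 0.70 ± 0.0648 in KO and 0.54 ± 0.0644 in WT.

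Among the 7 genes of membrane and lipid supply, 3 rose and 2 fell in KO, and 3 rose and 1 fell in WT. Atg2b, which carries lipid into the phagophore, rose by 0.69 ± 0.0663 in KO and 0.68 ± 0.0660 in WT, while its paralog Atg2a was called in neither genotype (-0.06 ± 0.0843 and -0.08 ± 0.0835). Vmp1, a lipid scramblase of the endoplasmic reticulum, rose by 0.54 ± 0.0633 in KO and 0.51 ± 0.0630 in WT. Wipi1 and Wipi2 bind the lipid mark: Wipi1 fell by 0.43 in KO and 0.38 in WT on the log2 scale, and Wipi2 rose in WT (0.25 ± 0.0803) with 0.11 ± 0.0803 and no call in KO. Without WT_RT replicate 4 and WT_cold replicate 5 the Wipi2 value in WT was 0.17 (adjusted p = 0.0598). Atg9a, the scramblase of the vesicles that seed the membrane, rose in KO (0.36 ± 0.0982) and was at 0.14 ± 0.0969 in WT. Its low-level paralog Atg9b (ENSMUSG00000038295.14, chromosome 5, 24384181 to 24392143, minus strand) had the largest change of the 45 genes. Atg9b stood at 0.448, 0.627, 0.297, 0.928 and 1.27 CPM in the KO_cold libraries, against 1.95, 3.93, 1.60, 3.49 and 1.75 CPM in KO_RT. Atg9b in the wild type stood at 0.920, 0.721, 1.03, 1.29 and 2.43 CPM in WT_cold, against 1.83, 2.78, 2.28, 0.748 and 2.22 CPM in WT_RT. All KO_cold libraries lay below all KO_RT libraries, and the WT groups overlapped. The log2 change was -1.81 ± 0.421 in KO (adjusted p = 0.00103) and -0.63 ± 0.392 in WT (adjusted p = 0.18). The WT value rests on WT_cold replicate 5, without which it was -0.99 (adjusted p = 0.0356). Without WT_RT replicate 4 and WT_cold replicate 5 together Atg9b fell in WT as well (-1.19, adjusted p = 0.00581). The difference between the genotypes was not called (-1.18 ± 0.574, adjusted p = 0.503).

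The conjugation machinery joins ATG12 to ATG5 and ATG8 proteins to lipid; 4 of its 7 genes rose in each genotype, with 3 lower in KO and 2 in WT. Atg12 (ENSMUSG00000032905.5), the ubiquitin-like protein of the first system, rose most in this group. Atg12 stood at 109, 85.8, 71.7, 85.3 and 92.6 CPM in the KO_cold libraries, against 58.05, 53.1, 55.97, 53.9 and 56.9 CPM in KO_RT. Atg12 in the wild type stood at 93.6, 103, 103, 90.9 and 90.6 CPM in WT_cold, against 49.9, 53.5, 53.6, 55.8 and 56.1 CPM in WT_RT. All cold libraries lay above all RT libraries in both genotypes. Atg12 changed by 0.68 ± 0.0781 in KO and 0.84 ± 0.0781 in WT on the log2 scale (adjusted p = 1.85e-07 and 1.18e-08). Its partner Atg5 rose by 0.23 ± 0.0614 in KO and 0.41 ± 0.0609 in WT, and Atg3, the E2-like enzyme that lipidates ATG8 proteins, by 0.37 ± 0.0596 in KO and 0.29 ± 0.0594 in WT. Atg10, the E2-like enzyme of ATG12, went the other way (-0.60 ± 0.0965 in KO and -0.30 ± 0.0952 in WT). Atg7, the E1-like enzyme of both systems, fell in KO (-0.22 ± 0.0904, adjusted p = 0.0391) and was at -0.01 ± 0.0883 in WT. The Atg7 call in KO was lost without any 1 of 8 of the 10 libraries, all but KO_RT replicates 3 and 5, and with relative log expression scaling, without the filter or with DESeq2 (adjusted p of 0.0618 to 0.072). With reads of both strands the Atg7 change in KO was -0.48 (adjusted p = 0.000833). Atg16l1, the subunit that places the complex on the membrane, rose by 0.23 ± 0.0562 in KO and 0.37 ± 0.0555 in WT, and its paralog Atg16l2 (ENSMUSG00000047767.17, chromosome 7, 101263034 to 101302251, minus strand) fell. Atg16l2 stood at 2.72, 2.23, 2.19, 2.01 and 1.90 CPM in the KO_cold libraries, against 3.27, 2.94, 3.79, 3.64 and 3.41 CPM in KO_RT. Atg16l2 in the wild type stood at 2.30, 1.76, 1.70, 1.32 and 1.53 CPM in WT_cold, against 3.42, 3.97, 3.74, 2.94 and 2.37 CPM in WT_RT. Every cold library lay below every RT library of its genotype. Atg16l2 changed by -0.62 ± 0.157 in KO and -0.93 ± 0.156 in WT (adjusted p = 0.00171 and 3.06e-05), and by -0.35 in KO (adjusted p = 0.188) with the muscle term.

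The ATG4 proteases trim ATG8 proteins before lipidation and release them afterwards. The 4 genes split the same way in both genotypes, with Atg4b and Atg4d higher and Atg4a and Atg4c lower. Atg4a (ENSMUSG00000079418.3, chromosome X, 140956907 to 141164270, plus strand) moved most. Atg4a stood at 6.06, 5.57, 5.65, 7.02 and 5.25 CPM in the KO_cold libraries, against 9.33, 10.9, 11.02, 9.77 and 9.59 CPM in KO_RT. Atg4a in the wild type stood at 6.17, 6.24, 5.64, 5.36 and 7.49 CPM in WT_cold, against 8.62, 9.55, 9.20, 8.56 and 8.79 CPM in WT_RT. Cold libraries were lower than all RT libraries in both genotypes, with log2 changes of -0.77 ± 0.0945 in KO and -0.53 ± 0.0930 in WT (adjusted p = 4.23e-07 and 4.74e-05). Atg4d rose by 0.29 ± 0.0761 in KO and 0.69 ± 0.0760 in WT, Atg4b by 0.16 ± 0.0526 in KO and 0.14 ± 0.0522 in WT, and Atg4c changed by -0.43 ± 0.0699 in KO and -0.34 ± 0.0691 in WT. The Atg4b calls were lost without the filter in KO (adjusted p = 0.0693) and WT (adjusted p = 0.055), and in WT without any 1 of WT_cold replicate 2 and WT_RT replicates 2 and 3. The ATG8 genes themselves moved by less than Atg4a. Gabarap rose by 0.34 ± 0.0555 in KO and 0.31 ± 0.0554 in WT, Gabarapl1 by 0.55 ± 0.103 in KO and 0.32 ± 0.103 in WT and Gabarapl2 by 0.13 ± 0.0548 in KO and 0.29 ± 0.0546 in WT. Map1lc3b, which codes for LC3B, the usual marker of autophagosomes, fell (-0.19 ± 0.0775 in KO and -0.26 ± 0.0773 in WT), but with the muscle term it was not called, at -0.05 in KO (adjusted p = 0.742) and -0.16 in WT (adjusted p = 0.159). Its call in KO was also lost with relative log expression scaling, without the filter, with DESeq2, with both strands (adjusted p of 0.0534 to 0.0818) and without any 1 of 8 of the 10 libraries. Map1lc3a was called in neither genotype. So all 3 GABARAP genes rose and neither of the 2 LC3 genes did. The call of Gabarapl1 in WT was lost without WT_cold replicate 2 (0.23, adjusted p = 0.0546). That of Gabarapl2 in KO was lost without any 1 of 3 libraries or with the muscle term (0.14, adjusted p = 0.157). It was also lost without the filter (adjusted p = 0.126) and with the replicate number as a block (adjusted p = 0.0508).

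Of the cargo receptors, 2 rose in both genotypes. Sqstm1, which codes for p62, the receptor of ubiquitinated cargo, ran from 128 to 262 CPM over the 20 libraries and rose by 0.39 ± 0.111 in KO and 0.46 ± 0.111 in WT. Tax1bp1, another ubiquitin-binding receptor, rose by 0.40 ± 0.0574 in KO and 0.39 ± 0.0574 in WT. Nbr1 was at 0.02 ± 0.0755 in KO and -0.01 ± 0.0754 in WT, with no call. Optn fell in KO (-0.21 ± 0.0672, a call lost without KO_cold replicate 2 or 4 or KO_RT replicate 1) and was at -0.01 ± 0.0669 in WT. Calcoco1 (ENSMUSG00000023055.10, chromosome 15, 102706777 to 102722178, minus strand), a receptor for autophagy of the endoplasmic reticulum, had the largest called fall in KO after Atg9b. Calcoco1 stood at 22.8, 21.1, 18.8, 21.8 and 25.5 CPM in the KO_cold libraries, against 45.2, 47.2, 47.99, 41.7 and 39.96 CPM in KO_RT. Calcoco1 in the wild type stood at 25.3, 30.2, 23.4, 23.7 and 38.2 CPM in WT_cold, against 51.3, 49.3, 51.1, 44.3 and 44.6 CPM in WT_RT. The cold libraries were lower than all RT libraries of the same genotype. The log2 change was -1.01 ± 0.111 in KO (adjusted p = 1.2e-07), a 2.02-fold fall, and -0.77 ± 0.109 in WT (adjusted p = 4.05e-06).

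All 4 mitophagy genes of the main list fell in both genotypes, where 31.7% of all genes fell in KO and 30.2% in WT. A separate list of further cargo and mitophagy genes belongs to the other pathway genes below. Of its 18 genes, 9 rose and 4 fell in KO, and 9 rose and 2 fell in WT. That list also holds receptors for the endoplasmic reticulum, ferritin and glycogen, so its counts do not show whether further mitophagy genes fell. Bnip3 (ENSMUSG00000078566.8, chromosome 7, 138890836 to 138909519, minus strand), an outer membrane receptor known as a hypoxia-responsive gene, is shown for its level, a choice made after its values were seen. Bnip3 stood at 138, 156, 161, 159 and 225 CPM in the KO_cold libraries, against 215, 183, 213, 224 and 245 CPM in KO_RT. Bnip3 in the wild type stood at 179, 221, 202, 211 and 159.9 CPM in WT_cold, against 303, 236, 262, 264 and 400.2 CPM in WT_RT. The WT groups did not overlap, and KO_cold replicate 5 lay inside the KO_RT range. The log2 change was -0.37 ± 0.140 in KO (adjusted p = 0.0303) and -0.59 ± 0.140 in WT (adjusted p = 0.00126). Its relative Bnip3l, the receptor NIX, fell by 0.73 ± 0.110 in KO (adjusted p = 7.84e-06) and 0.53 ± 0.109 in WT (adjusted p = 0.000276) on the log2 scale. Fundc1, another receptor of the outer membrane, changed by -0.27 ± 0.0663 in KO and -0.28 ± 0.0656 in WT. Pink1, the kinase that gathers on damaged mitochondria, changed by -0.19 ± 0.0606 in KO and -0.14 ± 0.0606 in WT, the smallest change of the 4. With the muscle term Bnip3 in KO (-0.37, adjusted p = 0.152) and Pink1 in both genotypes were no longer called. Bnip3l and Fundc1 in both genotypes and Bnip3 in WT stayed called under every alternative run, while the Bnip3 call in KO was lost without any 1 of KO_cold replicates 1 to 4 and KO_RT replicates 1, 4 and 5 (adjusted p of 0.0665 to 0.09). The Pink1 call in KO was lost without any 1 of 3 libraries. In WT it was lost without any 1 of 5 libraries and under all 7 other settings, among them DESeq2 (-0.12, adjusted p = 0.102) and the replicate block (-0.14, adjusted p = 0.0628), with -0.08 without WT_cold replicate 3. Of the remaining genes, Trp53inp2 rose by 0.39 ± 0.0862 in KO and 0.44 ± 0.0862 in WT and Epg5, a tether for fusion with lysosomes, was called in neither genotype.

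**Figure D3:**
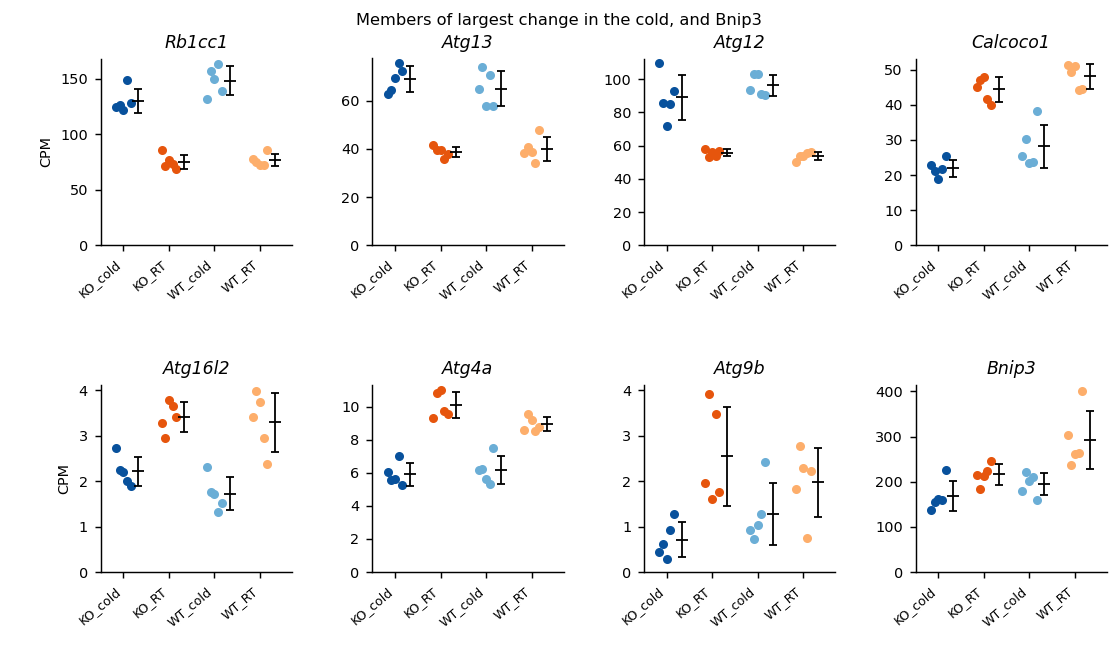
CPM in each library for 8 genes, as points with the mean and SD of the 5 libraries in KO_cold, KO_RT, WT_cold and WT_RT. Rb1cc1, Atg13 and Atg12 lie higher in the cold, and Calcoco1, Atg16l2 and Atg4a lie lower in the cold, with no overlap between temperatures in either genotype.

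The knockout changed few of the 45 genes. At RT, KO_RT against WT_RT, 0 rose and 1 fell (2.22%), where 2.7% of all genes tested were called (1.38% higher and 1.32% lower), so the share lay near that of all genes. The unadjusted p was under 0.05 for 5 genes on each side (1063 higher and 1047 lower of all 15233 genes). DESeq2 called 0 higher and 2 lower (312 and 317 over all genes). The median log2 change was -0.03. The 95% interval of the change lay within ±0.5 log2 for 43 of the 45, and for 9315 of all genes. In the cold, KO_cold against WT_cold, 1 rose and 3 fell (8.89%), where 7.7% of all genes were called (3.51% higher and 4.19% lower). The unadjusted p was under 0.05 for 4 higher and 8 lower genes (1441 and 1602 over all genes). DESeq2 called 1 higher and 6 lower (622 and 818 over all genes). The median log2 change was -0.04, and 38 of the 45 had an interval within ±0.5 log2, as had 8676 of all genes. The 5 and 5 libraries did not overlap for 3 genes at RT (4.98% of all genes did not) and for 5 genes in the cold (7% of all genes). At RT these were Wipi2, higher in KO (2.44% of all genes), and Atg16l1 and Bnip3l, lower (2.54%). In the cold none was higher (3.26% of all genes) and all 5 were lower in KO (3.74%): Atg5, Atg7, Atg16l1, Atg4d and Bnip3l. Fibroblast and progenitor markers, of which 3 of 9 were called higher in the cold and 2 at RT, summed to 870.0 to 974 CPM in KO_cold against 699.9 to 819 in WT_cold, and to 721 to 971 in KO_RT against 588 to 769.9 in WT_RT. Of the 9 brown adipocyte markers, Elovl3, Plin1 and Pparg were called lower in KO in the cold and Elovl3 at RT. The 6 erythrocyte markers, none called at either temperature, summed to 274 to 400.1 CPM in KO_cold against 269.5 to 1158 in WT_cold (median 309.9). At RT they summed to 213.4 to 410.1 CPM in KO_RT against 265.6 to 475 in WT_RT. The part of these lists in the results, that of Bnip3l among them, was not tested.

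**Figure D4:**
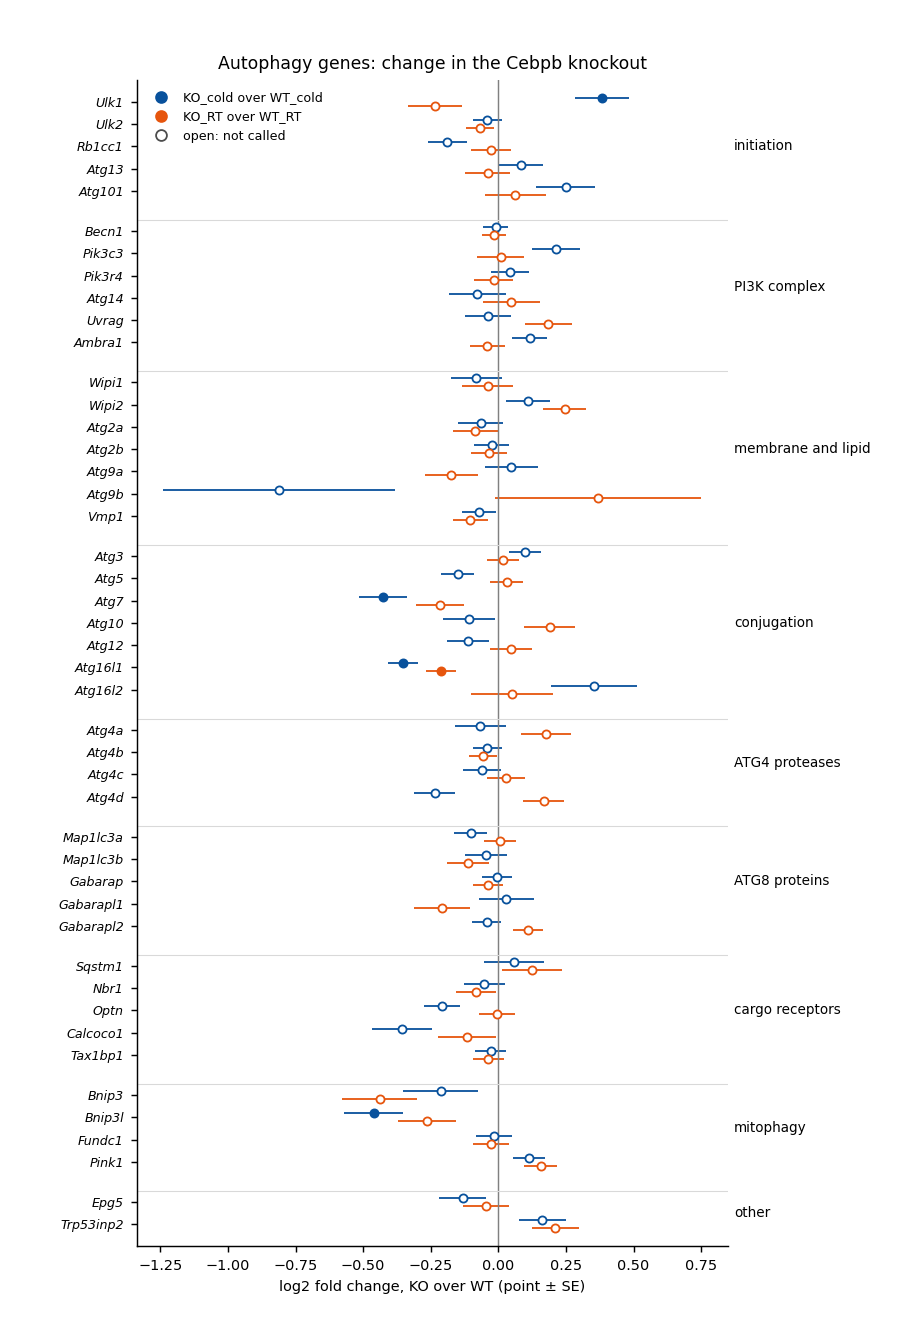
Log2 change of the 45 genes in the knockout by role, for KO_cold over WT_cold and KO_RT over WT_RT. Points are shown ± SE from the single fit of all 20 libraries, 5 per group, with filled points for called changes. Filled points are Ulk1, Atg7, Atg16l1 and Bnip3l in the cold and Atg16l1 at RT.

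Atg16l1 (ENSMUSG00000026289.15, chromosome 1, 87755870 to 87792428, plus strand), which carries the ATG12 to ATG5 conjugate to the phagophore, was lower in KO at both temperatures. It stood at 32.4, 30.3, 30.3, 34.4 and 29.5 CPM in KO_cold, against 38.7, 39.7, 38.9, 42.4 and 40.7 CPM in WT_cold. At RT it stood at 26.1, 25.2, 27.6, 27.2 and 27.7 CPM in KO_RT, against 32.1, 31.8, 33.1, 27.9 and 30.1 CPM in WT_RT. No KO library reached a WT library of the same temperature, and the KO_cold values overlapped the WT_RT values. The log2 change was -0.35 ± 0.0558 in the cold (means 31.4 ± 1.98 and 40.1 ± 1.54 CPM, SD, n = 5 each, adjusted p = 0.000212 by edgeR). At RT it was -0.21 ± 0.0560 (means 26.8 ± 1.07 and 31.01 ± 2.05 CPM, adjusted p = 0.0408). The call in the cold held under every alternative run. The call at RT lay close to the threshold and was lost without any 1 of 9 of the 10 libraries compared, all but WT_RT replicate 4, with adjusted p of 0.0517 to 0.108. The rise in the cold was present in both genotypes, and the interaction was not called (-0.14 ± 0.0790, adjusted p = 0.585).

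Ulk1 (ENSMUSG00000029512.11, chromosome 5, 110784488 to 110810097, minus strand), the kinase at the head of the pathway, was the gene with a called difference in cold response between the genotypes. It stood at 78.2, 59.7, 60.4, 56.1 and 58.2 CPM in KO_cold, against 43.2, 39.1, 39.5, 41.4 and 32.5 CPM in KO_RT. In the wild type it stood at 56.8, 53.5, 46.6, 39.05 and 43.5 CPM in WT_cold, against 45.6, 43.2, 48.003, 47.6 and 46.01 CPM in WT_RT. KO_cold lay above all KO_RT libraries, whereas the WT groups overlapped. KO_cold also overlapped WT_cold, since its replicate 4 (56.1 CPM) lay below WT_cold replicate 1 (56.8 CPM). The log2 change in the cold was 0.67 ± 0.0988 in KO (adjusted p = 4.74e-06) and 0.06 ± 0.0981 in WT (adjusted p = 0.646). The difference of these was 0.62 ± 0.139 (95% interval 0.32 to 0.91, adjusted p = 0.034), the 1 interaction call among the 45 (2.22%), where 0.742% of all genes were called (0.427% higher and 0.315% lower). None of the 45 had a called lower interaction by edgeR, with 4 at an unadjusted p under 0.05 (824 of all genes). DESeq2 called 1 lower, Atg4d (140 lower over all genes). Against the wild type, Ulk1 changed by 0.38 ± 0.0981 in the cold (adjusted p = 0.0162) and -0.23 ± 0.0985 at RT (adjusted p = 0.266). Both calls depend on single libraries: without KO_cold replicate 1 the change in the cold was 0.29 (adjusted p = 0.0577), without WT_cold replicate 4 it was 0.32 (adjusted p = 0.0508), and the interaction was lost without any 1 of 12 libraries (KO_cold replicates 1 and 3, KO_RT 2, 3 and 5, WT_cold 3, 4 and 5, WT_RT 1, 3, 4 and 5), with values of 0.52 to 0.63 and adjusted p of 0.0504 to 0.07. Without WT_RT replicate 4 and WT_cold replicate 5 together the change in the cold was 0.35 (adjusted p = 0.0504) and the interaction 0.57 (adjusted p = 0.107).

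Atg7 (ENSMUSG00000030314.16, chromosome 6, 114643097 to 114860614, plus strand), the E1-like enzyme that activates both conjugation systems, was lower in KO in the cold. Its values were 10.7, 11.8, 12.6, 12.4 and 11.9 CPM in KO_cold, against 14.998, 17.8, 13.1, 16.2 and 17.7 CPM in WT_cold. At RT they were 14.5, 14.4, 12.6, 15.2 and 12.6 CPM in KO_RT, against 18.4, 16.7, 13.9, 15.3 and 16.2 CPM in WT_RT. The groups did not overlap in the cold and overlapped at RT. Atg7 changed by -0.43 ± 0.0899 in the cold (adjusted p = 0.00367) and -0.22 ± 0.0890 at RT (adjusted p = 0.256). The value holds for the strand of the library kit, and with reads of both strands counted it was -0.16 in the cold (adjusted p = 0.465). Bnip3l (ENSMUSG00000022051.15, chromosome 14, 66985239 to 67008877, minus strand) was lower in KO in the cold as well. It had 45.1, 34.6, 35.3, 41.1 and 45.1 CPM in KO_cold, against 47.3, 51.3, 49.998, 53.5 and 75.2 CPM in WT_cold. At RT it had 68.5, 68.99, 69.7, 67.6 and 59.6 CPM in KO_RT, against 78.004, 78.6, 79.4, 70.99 and 94.3 CPM in WT_RT. Neither temperature showed an overlap of the genotypes. The log2 change was -0.46 ± 0.110 in the cold (adjusted p = 0.00993) and -0.26 ± 0.109 at RT (adjusted p = 0.257). The Bnip3l call in the cold was lost with only the groups compared in the fit (-0.46, adjusted p = 0.0601). Bnip3 was not called by edgeR in either condition (-0.21 ± 0.139 in the cold and -0.44 ± 0.139 at RT), and DESeq2 called it at RT (-0.45, adjusted p = 0.0394).

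**Figure D5:**
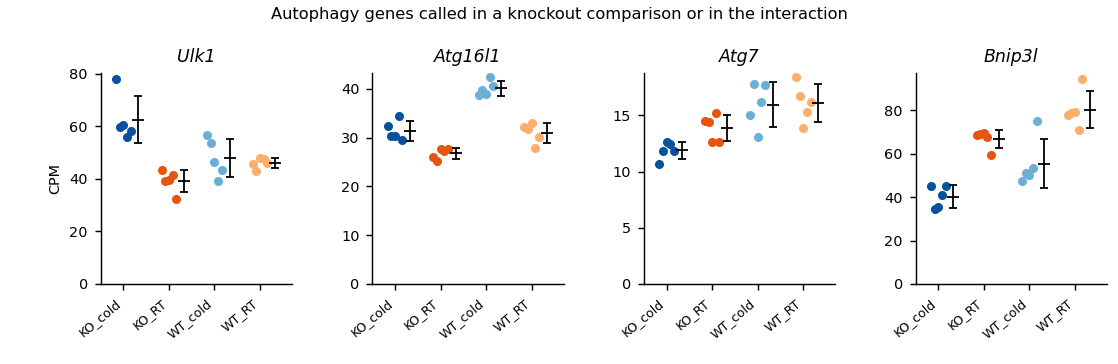
CPM in each library for Ulk1, Atg16l1, Atg7 and Bnip3l, as points with the mean and SD of the 5 libraries in KO_cold, KO_RT, WT_cold and WT_RT. Atg16l1 and Bnip3l lie lower in KO than in WT at each temperature, Atg7 does so in the cold, and Ulk1 lies highest in KO_cold.

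Beside the 45 genes, 85 others of the pathway were followed: upstream regulators, transcription factors of autophagy genes, further autophagosome genes, further cargo and mitophagy genes, and genes of fusion with lysosomes. In the cold 43 rose and 17 fell in KO (70.6% called, against 59.2% of all genes), and 43 rose and 18 fell in WT (71.8%, against 56.4%). Among them Flcn, a regulator of nutrient signalling at the lysosome, rose by 2.25 ± 0.152 in KO and 1.61 ± 0.149 in WT on the log2 scale, more than any of the 45. Atf4 (1.15 in KO, 1.37 in WT) and Foxo1 (0.88, 1.12), a pair of transcription factors that act on autophagy genes, rose. So did Ddit4 (1.28, 0.997), an inhibitor of the kinase mTORC1, and Stbd1 (1.66, 0.85), a receptor for glycogen. The Ddit4 relative Ddit4l fell by 3.34 in KO and 3.25 in WT on the log2 scale. Retreg1, another receptor for the endoplasmic reticulum (-1.01, -1.51), Castor2, a relative of an arginine sensor (-1.11, -1.04), Sesn1, a stress-responsive sestrin (-1.02, -0.94), and Trp53inp1, the relative of Trp53inp2 (-1.43, -0.82), fell as well. In the fusion list 6 of 16 rose in each genotype (37.5%, against 27.5% of all genes in KO and 26.2% in WT). There 4 fell in KO (25%, against 31.7% of all genes) and 5 in WT (31.2%, against 30.2%), so the lower shares lay near or under those of all genes.

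In the knockout the 85 genes gave 0 higher and 1 lower call at RT, and 7 of each in the cold. These are 1.18% at RT, where 2.7% of all genes were called, and 16.5% in the cold, where 7.7% were. At RT the gene was Sec62 (-0.22 log2), a receptor for autophagy of the endoplasmic reticulum. With KO_cold against WT_cold the higher genes were Mitf (0.88), Sesn2 (0.85), Stbd1 (0.84), Flcn (0.60), Sesn3 (0.33), Rubcn (0.23) and Hif1a (0.20). Lower were Trp53inp1 (-0.83), Prkag2 (-0.70), Ncoa4 (-0.38), Nrbf2 (-0.33), Phb2 (-0.21), Sec62 (-0.21) and Bcl2l13 (-0.19). They include a transcription factor of lysosome genes (Mitf), the hypoxia factor Hif1a, an inhibitor of autophagosome maturation (Rubcn), a subunit of the lipid kinase complex (Nrbf2), a pair of sestrins, a subunit of the energy sensor AMPK (Prkag2), the ferritin receptor Ncoa4, and Phb2 and Bcl2l13, which serve as mitophagy receptors. Mitf was also the 1 gene of the 85 with a called interaction (0.86 ± 0.199, adjusted p = 0.0428 by edgeR), close to the threshold. Mitf changed by -0.18 ± 0.140 in the cold in KO, without a call, and by -1.04 ± 0.142 in WT. How the calls of the 85 genes held under the alternative runs is not given here.

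Promoter sequence was read for 37 of the 45 genes, as the 250 bases before the start in RefSeq's annotation of GRCm38.p6. There was no entry for Atg12, Atg16l1, Becn1, Bnip3l, Epg5, Map1lc3a, Pik3c3 and Rb1cc1. For 14 of the 37, a RefSeq start lay more than 100 bases inside the gene as GENCODE M21 spans it, so the window can hold transcribed sequence of a longer transcript. Letters of 5 motifs were searched on both strands. TGACGTCA, the cAMP response element bound by CREB and ATF factors, was in 2 genes (5.41%), where 2.95% of 10883 tested genes with an entry and 1.55% of all 32851 entries held it. Its shorter core TGACG, which is part of the full motif, was in 14 (37.8%, against 29.5% of tested genes and 17.8% of all entries). CACGTG, the E-box that TFEB, MITF, MYC and clock factors can bind, was in 4 (10.8%, against 9.69% and 6.02%). TTGCNNAA, a C/EBP-type motif, was in 3 (8.11%, against 9.2% and 9.56%): Atg7, Atg9a and Atg14, whose RefSeq starts lay 27999, 186 and 2215 bases inside the GENCODE gene. The E-box count includes Atg7 as well. TGTTTAC, the forkhead motif, was in 0, where 2.83% of tested genes and 3.17% of all entries held it. The shares of the 45 genes are counts of letters and say nothing of binding.

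The 2 full cAMP response elements belong to genes that moved in opposite directions in the cold, Trp53inp2 (higher) and Atg16l2 (lower), 41 and 18 bases before the RefSeq start. That start lay 797 bases inside the GENCODE gene for Trp53inp2 and 163 bases inside it for Atg16l2, so both elements fall within the span of the gene there. They are shown with Bnip3 and Atg5, which hold an E-box 108 and 14 bases before the RefSeq start and fell and rose in the cold. Ulk1, which had a called interaction that did not hold under every alternative run, held none of the 5 motifs. Capitals mark the motif letters.
Trp53inp2, chr2:155381606-155381855, plus strand: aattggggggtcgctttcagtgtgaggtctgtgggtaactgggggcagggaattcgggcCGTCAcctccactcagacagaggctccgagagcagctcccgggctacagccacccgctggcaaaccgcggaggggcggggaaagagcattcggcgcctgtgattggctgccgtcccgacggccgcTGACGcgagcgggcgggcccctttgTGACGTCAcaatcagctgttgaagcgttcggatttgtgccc
Atg16l2, chr7:101302089-101302338, minus strand: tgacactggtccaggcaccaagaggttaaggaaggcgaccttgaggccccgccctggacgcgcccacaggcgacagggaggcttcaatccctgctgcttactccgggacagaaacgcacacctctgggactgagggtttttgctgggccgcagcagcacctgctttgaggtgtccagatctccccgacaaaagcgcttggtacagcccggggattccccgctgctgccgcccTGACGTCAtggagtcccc
Bnip3, chr7:138909507-138909756, minus strand: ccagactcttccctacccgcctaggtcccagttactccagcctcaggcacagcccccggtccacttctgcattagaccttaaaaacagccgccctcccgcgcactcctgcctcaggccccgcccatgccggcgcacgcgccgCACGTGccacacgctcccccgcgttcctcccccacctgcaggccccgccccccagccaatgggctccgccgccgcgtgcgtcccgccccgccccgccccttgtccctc
Atg5, chr10:44268089-44268338, plus strand: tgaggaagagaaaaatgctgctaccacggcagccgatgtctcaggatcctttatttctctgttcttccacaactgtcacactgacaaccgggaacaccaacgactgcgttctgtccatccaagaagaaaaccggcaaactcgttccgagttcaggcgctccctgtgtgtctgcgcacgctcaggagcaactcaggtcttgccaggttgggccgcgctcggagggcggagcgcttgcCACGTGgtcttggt
Ulk1, chr5:110810082-110810331, minus strand: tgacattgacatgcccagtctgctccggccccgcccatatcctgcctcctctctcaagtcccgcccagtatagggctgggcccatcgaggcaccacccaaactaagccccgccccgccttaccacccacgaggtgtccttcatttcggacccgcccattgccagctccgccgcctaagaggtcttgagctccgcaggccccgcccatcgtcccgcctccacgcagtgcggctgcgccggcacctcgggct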

How the data were processed

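Stranded mRNA sequencing (KAPA stranded kit, PureLink RNA isolation, per the labels' protocols) measured brown adipose tissue in 4 groups of 5 libraries. The submitters' processing notes name Trim Galore 0.6.0, STAR 2.7.8a and the build GRCm38.p6. The annotation release is not given in the sources used here. The authors deposited 1 table of raw read counts per gene and strand for each library. Counts of the reverse strand (94.5% to 95.7% of the stranded ones) entered all values, at 27.07 to 55.18 M per library. Entries that name no gene were left out: reads left unmapped (3.86% to 5.66%), mapped to several places (18.3% to 21.4%), outside genes (3.14% to 4.55%) or in more than 1 gene (1.02% to 1.16%).

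No pair of libraries in a group agreed within counting error (chi-square per degree of freedom 15.2 or more). Gene coordinates and exon lengths came from GENCODE M21, which held all 45 genes, 44 with the same ID version. Genes were kept by filterByExpr (count minimum 10, total minimum 15), which left 15233. In R 4.3.3, edgeR 4.0.16 with TMM scaling gave 5 comparisons from a single robust quasi-likelihood model over all 20 libraries: cold in KO, cold in WT, knockout in the cold, knockout at RT and the interaction. Benjamini-Hochberg adjustment ran over all genes tested, and 0.05 was the threshold. Errors of log2 changes are SEs of the fit, and errors of means are SDs over 5 libraries. The fit was also run on simulated counts in which few genes were changed, and the outcome is not given here. Most genes tested were called in the cold, so that run does not show how the fit does in these data.

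Values in every library are given for genes called in a knockout comparison or the interaction, and for genes called in the cold with a log2 change of at least 0.75 in either genotype. Other pathway genes are named where called with a log2 change of at least 1 in the cold, or called for the knockout or the interaction. The genes, lists and rules were chosen with earlier results of these data known. The alternatives were relative log expression scaling, no filter, DESeq2 1.42.0, only the groups compared in the fit, a replicate block, counts of both strands, the mean of the skeletal muscle markers as a term, and each library left out. Leaving out WT_RT replicate 4 and WT_cold replicate 5 together was added after the data were seen. Comparisons in the cold and in the knockout share libraries, so their values stand side by side without a correlation.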

Additional observations from a re-analysis of the deposited data

Results flagged for a closer look

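In 180 groups of 5 libraries, 1 library stood far from the other 4 in 11, where chance flags about 5% of groups. The gap to the nearest other library is given as a share of the group's range, with a critical value of 0.71. In KO_cold, replicate 1 was highest for Ulk1 (78.16 CPM, next 60.45, share 0.804), replicate 4 for Rb1cc1 (148.9, next 128.3, share 0.762) and replicate 2 for Atg5 (26.9, next 25.54, share 0.77). Replicate 5 of KO_cold was highest for Bnip3 (225.4, next 160.9, share 0.734) and lowest for Fundc1 (17.02, next 19.55, share 0.715). In KO_RT, replicate 2 was highest for Pik3c3 (27.47, next 23.27, share 0.767) and replicate 5 lowest for Bnip3l (59.56, next 67.62, share 0.798). In WT_cold, replicate 4 was highest for Atg4d (74.55, next 62.1, share 0.769) and replicate 5 for Bnip3l (75.2, next 53.52, share 0.776). In WT_RT, replicate 4 was lowest for Wipi2 (140.6, next 164.8, share 0.718) and replicate 1 highest for Pink1 (169.5, next 148.4, share 0.716).

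By the interaction term of edgeR, a difference in cold response between KO and WT was called for Ulk1 (0.62 log2). Among the other pathway genes it was called for Mitf (0.86 log2). The Ulk1 call was lost without the filter (adjusted p = 0.0765) and without any of several single libraries, and the Mitf call lay close to the threshold.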

How the results depend on the processing

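No called gene changed direction under any alternative run. In the cold, 18 of the 20 genes higher in KO and 16 of the 19 higher in WT stayed called under every alternative, as did 9 of the 16 lower in KO and 10 of the 14 lower in WT. With the mean of the muscle markers as a term, the genes lower in the cold in KO numbered 10 rather than 16 (3445 rather than 4824 over all genes), and the cause was not tested. Leaving out 1 library at a time gave 19 to 21 higher and 11 to 16 lower in KO, and 17 to 19 higher and 11 to 14 lower in WT. The calls in KO most often lost in this way were Atg7 and Map1lc3b (8 libraries each) and Bnip3 (7), and in WT Pink1 (5). Genes lower in the knockout at RT numbered 1, against 0 without the filter, with only the groups compared, with the replicate block or with both strands, and 2 with DESeq2, where the added gene was Bnip3 (-0.45, adjusted p = 0.0394). They numbered 0 to 1 with 1 library left out, and 2 without WT_RT replicate 4 and WT_cold replicate 5, where Bnip3l was added (-0.31, adjusted p = 0.0433). In the cold the 1 gene higher in the knockout was 0 with only the groups compared, and 0 to 1 with libraries left out. Without KO_cold replicate 1 the called gene was Atg101 (0.3421, adjusted p = 0.0398) in place of Ulk1 (adjusted p = 0.0577). The 3 lower ones were 5 with relative log expression scaling, which added Calcoco1 and Optn, 6 with DESeq2, which added Atg4d as well, 2 with only the groups compared, where Bnip3l was lost (adjusted p = 0.0601), and 3 to 5 with libraries left out, 5 of them without KO_cold replicate 5 or WT_cold replicate 1. With both strands Atg7 was lost (-0.16, adjusted p = 0.465) and Calcoco1 added. The interaction gave 1 higher gene, against 0 without the filter and 0 to 1 with libraries left out, and 0 lower genes, against 1 with DESeq2 (Atg4d). The replicate number as a block left 19 higher and 17 lower genes in the cold in KO, 19 and 13 in WT, and 1 and 3 in the knockout in the cold. Deviations of same-numbered libraries from their group means had correlations of -0.184 to 0.274. In the knockout in the cold these were 0.143, -0.00477, -0.00507, 0.226 and 0.274 for replicates 1 to 5. Weak correlations cannot tell whether the numbers pair the samples. Atg9b and Atg16l2, the genes of lowest level, had the largest SEs in all 5 comparisons.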
